A study of Mus musculus with 63 samples.

Results

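Ribosomal protein genes encode the proteins of the cytosolic ribosome. Rows of the deposited tables were taken whose mouse symbol is Rpl or Rps followed by a number, with or without a final a, x or y, together with Rplp0, Rplp1, Rplp2 and Rpsa. Pseudogenes, the S6 kinase genes and rows that merge several genes were dropped. The rule found 72 genes among 24990 rows, 29 for the small subunit and 43 for the large subunit. Their lowest count in any library was 644, for Rpl35a, so all 72 passed the low-count filter of every comparison. Rpl26, Rps27, Rpl30 and Rpl34 were left out because each shares its row with another gene. Fau, Rps3a1 and Rack1 also encode ribosomal proteins and fall outside the name rule.

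A ribosome carries a single copy of nearly every ribosomal protein, and the stalk of the large subunit is the exception, with Rplp0 as its base and Rplp1 and Rplp2 as paired arms that recruit translation factors. Transcripts of these genes typically start with a C inside a run of pyrimidines, the terminal oligopyrimidine tract. Through that tract mTOR and the RNA-binding protein Larp1 adjust their translation, while Myc raises transcription of ribosomal genes and of the factors that assemble ribosomes. Mouse embryonic stem cells are known for changes in ribosome production between culture media and on differentiation, which makes the family a frequent subject of expression studies in these cells.

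The study used R1 mouse embryonic stem cells to relate the Meteor long non-coding RNA locus to Eomes. There were 63 libraries of polyadenylated RNA in 21 groups of 3. In the genotype series, wild-type lines WT1 and WT2, the Meteor promoter knockout lines pKO1 and pKO2, and the Meteor promoter inversion line pInv were each grown in 2i, in serum and as neural progenitor cells (NPCs). The 2i medium held PD0325901, a MEK inhibitor, at 1 µM, CHIR99021, a GSK3 inhibitor, at 3 µM, and LIF at 10 ng/ml. Serum cultures received 15% serum with the same LIF, and stem cells in either medium grew on mouse embryonic fibroblast feeders. NPCs were collected after 4 days in differentiation medium that followed passage in serum without feeders. In the perturbation series, an empty-vector line (Ctrl) and the Meteor knockdown lines KD1 and KD2 were grown in serum and as NPCs, and the sample label and the series text differ on whether the knockdown used dCas9 or Cas9. The labels give no growth protocol for Ctrl NPC replicate 3, which was grouped by its title. Whether the 3 libraries of each group are separate cultures is not stated, so p-values measure the spread between these libraries, which may be technical. The inversion and the empty vector are represented by 1 line each.

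Depth was 7566629 to 18553323 counts per library (median 11882018). Platr11, the annotated transcript at the Meteor locus, was at 21.4 to 26.9 CPM (counts scaled to a common library total) in the 6 WT libraries in 2i and at 0 to 0.249 CPM in the 6 pKO libraries, and in serum and NPCs it was likewise lower in pKO and pInv. In the knockdown it was at 0.497 to 4.10 CPM in serum against 13.1 to 23.9 CPM in Ctrl, a log2 fold change of −3.39 ± 0.45 (SE) that did not pass adjustment (adjusted p = 0.180, edgeR quasi-likelihood test). The summed level of 8 pluripotency markers fell from 5370–6453 CPM in WT 2i to 557–1080 CPM in WT NPCs, and that of 8 neural progenitor markers was 98.4–149 CPM in WT serum and 179–559 CPM in WT NPCs. An unnamed row, the one with the most counts of those without a name, took between 0.668% and 6.04% of a library and enters the denominator of every CPM.

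Start-site sequence was available from RefSeq (build GRCm38.p6) for 53 of the 72 genes. The 30-base windows shown here run from 15 bases before the annotated start to 15 bases from it, with the start as the sixteenth base, and capitals mark the longest run of at least 5 pyrimidines. The first set shows the longest runs in the family.
Rpl7a (chr2:26910792-26910821, plus strand): aTTCCCTCTTCTTTCTTTCTCCagcagccg
Rpl27a (chr7:109519180-109519209, plus strand): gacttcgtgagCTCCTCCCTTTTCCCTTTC
Rpl35 (chr2:39005117-39005146, minus strand): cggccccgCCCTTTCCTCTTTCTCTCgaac
Rpl15 (chr14:18270972-18271001, minus strand): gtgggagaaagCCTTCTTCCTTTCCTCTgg
The second set belongs to genes described in the state results that follow.
Rps12 (chr10:23787195-23787224, minus strand): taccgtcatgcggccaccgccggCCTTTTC
Rps15a (chr7:118116133-118116162, minus strand): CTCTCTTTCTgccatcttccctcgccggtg
Rplp2 (chr7:141447636-141447665, plus strand): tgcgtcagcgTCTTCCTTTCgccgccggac
Rpl38 (chr11:114668565-114668594, plus strand): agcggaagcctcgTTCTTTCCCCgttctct
Rps21 (chr2:180257364-180257393, plus strand): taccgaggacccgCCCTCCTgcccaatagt
Rplp0 (chr5:115559452-115559481, plus strand): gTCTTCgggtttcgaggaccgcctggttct
Rps4x (chrX:102189377-102189406, minus strand): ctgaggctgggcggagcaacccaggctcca
In the Rpl15, Rplp2 and Rpl38 windows the run covers the annotated start, whereas in Rps15a it lies wholly before it, in Rps12 it lies after it, and in Rps4x there is no run of 5. Rps21 has a further annotated start downstream whose window holds no such run. A run of at least 5 pyrimidines was present in this window for 40 of the 53 genes (75.5%), against 51.5% of all 27025 genes in the same table.

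Short motifs were counted in the same promoters. CTTTC, searched on the gene strand from 30 bases before to 30 bases after the start, was found in 19 of 53 ribosomal protein genes (35.8%) and in 9.18% of all genes. CTTCCG, or CGGAAG on the other strand, the core recognised by ETS-family factors, occurred between 250 bases before and 50 bases after the start in 36 of 53 (67.9%) and in 18.8% of all genes. GGGCGG, or CCGCCC on the other strand, the GC box, occurred in that longer window in 33 of 53 (62.3%) and in 38.2% of all genes. These are matches of letters at annotated starts, and an annotated start may differ from the start used in these cells.

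Per length, the transcripts of the family covered a wide range. Mean TPM over the 63 libraries, a level per transcript length computed by the authors, was highest for Rps12 (16165 ± 4029, SD over libraries), a protein of the beak of the small subunit, and then for Rpl41 (13867 ± 3576), among the shortest proteins known. Rps26 (13854 ± 3499), which lines the path where mRNA leaves the ribosome, Rps28 (13383 ± 4298) and Rpl38 (12999 ± 6497) followed. The lowest were Rps15a (96.9 ± 68.7), Rpl22 (176 ± 36.1), Rps3 (368 ± 54.7), Rpl21 (431 ± 118) and Rpl23 (436 ± 154). The highest mean was 167 times the lowest, the family median was 3108 TPM, and the proteins are made in equal numbers per ribosome apart from the stalk. Reference length differed too, from 300.1 bases for Rpl38 to 5134 bases for Rps15a with a median of 733, and it was below 1000 bases for 54 genes. Length and TPM were inversely related across the 72 genes (Spearman's rho −0.51), a relation across genes that share libraries and that the division by length enters.

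Reads that fit several genes affect part of the family, since ribosomal protein genes have many processed pseudogenes. RSEM divides such reads, which leaves counts that are not whole numbers. Counts were whole in every library for 50 of the 72 genes, whereas 22 had a divided count in at least 1 library. Rps2, Rpl31, Rplp0 and Rplp2 were among those with divided counts in all 63, so their levels, and that of Rps15a, are less certain. Among named pseudogene rows, Rpl31-ps12 ranged from 0.512 to 1009 CPM and Rps15a-ps4 from 45.4 to 1435 CPM over the libraries.

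The 72 genes together held between 8.01% and 14.06% of a library's counts. In WT cells their share was 8.48% ± 0.34 (SD, n = 6) in 2i, 9.33% ± 0.26 in serum and 9.87% ± 0.32 in NPCs. The highest 2i library (8.90%) stood just above the lowest serum library (8.85%), so those groups overlapped slightly, and the serum and NPC ranges overlapped between 9.48% and 9.60%. Shares in pKO were 9.20% ± 0.49 in 2i, 9.84% ± 1.3 in serum and 10.35% ± 0.92 in NPCs. The pKO lines differed in serum, with 8.95% ± 0.41 (n = 3) in pKO1 and 10.73% ± 1.29 in pKO2, whose replicate 1 reached 11.92%. Groups of the perturbation series were above WT in the same state, at 10.57% ± 0.46 in Ctrl serum, 11.18% ± 0.73 in KD serum, 12.46% ± 1.54 in Ctrl NPCs and 12.38% ± 0.57 in KD NPCs. No library of the genotype series reached the 14.06% of Ctrl NPC replicate 1. Because a share is relative, a higher value can reflect more transcripts of these genes or fewer of others, and in bulk RNA fewer cells of a type and less RNA per cell cannot be told apart.

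**Figure D1:**
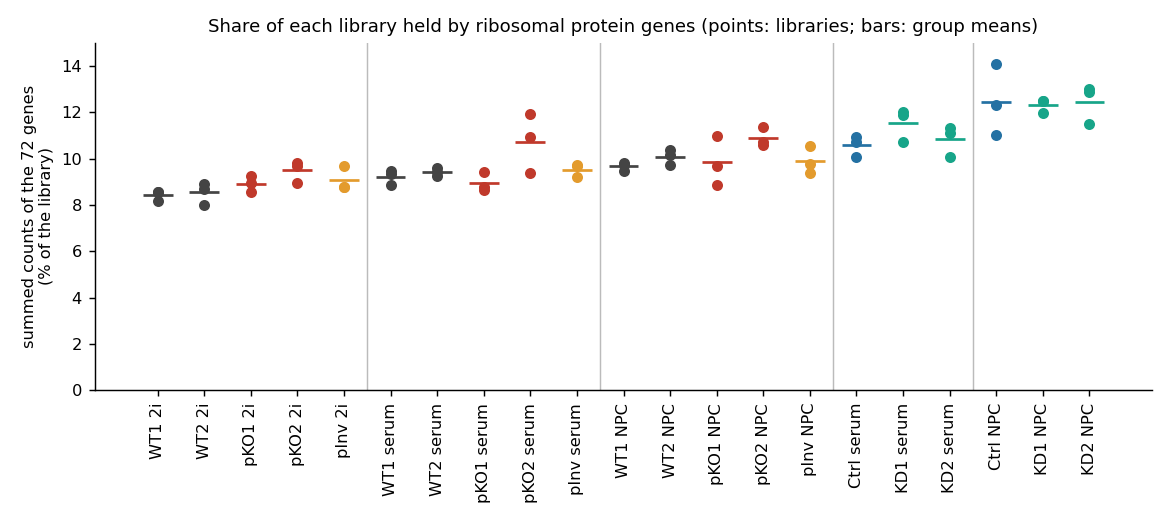
Summed counts of the 72 ribosomal protein genes as a percentage of each library (vertical axis, linear from 0) for the 21 groups, with points for libraries and bars for group means. WT means run from 8.48% in 2i to 9.87% in NPCs, and the Ctrl and KD groups at the right lie above them, up to 14.06% in 1 Ctrl NPC library.

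The family kept its internal proportions in part. As a share of the summed counts of the 72 genes, 63 members varied more between the 21 group means than between libraries of a group. The most variable over the group means were Rps15a, with an SD of 0.840 on the log2 scale, Rps29 (0.704) and Rpl38 (0.655). The steadiest were Rps16 (0.100), Rpl10a (0.121) and Rpl10 (0.122), the last a late-assembling protein of the large subunit. The 10 most abundant members by count held 31% of the family's counts, led by Rplp0 and Rps20.

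In WT cells moved from 2i to serum, 28 of the 72 genes rose and 8 fell at an adjusted p under 0.05 (edgeR quasi-likelihood test with Benjamini-Hochberg adjustment over 15145 genes). The same test gave every adjusted p in the text unless named, adjusted over the genes tested in each comparison, from 13454 to 15679. Of the 15145 genes, 59.0% passed in either direction and 29.5% passed as higher, so the 28 rises of 72 are a larger share than the background and the 36 changes are not. The median log2 fold change was 0.18 for the family and 0.00 for all genes. Small-subunit genes gave 13 rises and 3 falls of 29, and large-subunit genes 15 rises and 5 falls of 43. Relative to the family itself, with library size set to its summed counts, 18 members rose and 12 fell. That scaling centres the family by construction.

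Rps12 and Rps15a had the largest rises of the small subunit. Rps12 was at 1255, 1875 and 2397 CPM in 2i (lowest, median and highest of 6 WT libraries) and at 3477, 3860 and 4408 CPM in serum, a log2 fold change of 1.00 ± 0.12 (adjusted p = 7.07e-07). Rps15a was at 82.7, 108 and 126 CPM in 2i and at 204, 224 and 323 CPM in serum (1.15 ± 0.22, adjusted p = 0.000181). For both genes every serum library lay above every 2i library. Rps27a, which is made as a fusion to ubiquitin, went from 220.4, 472 and 654 CPM to 534, 715 and 946 CPM (0.64 ± 0.15, adjusted p = 0.00138), with overlap between the groups. Rps6, the phosphorylation target of S6 kinase, rose by 0.30 ± 0.07 (adjusted p = 0.00213). Rps19, the gene most often mutated in Diamond-Blackfan anaemia in humans, was at −0.01 ± 0.10 and did not pass.

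Among large-subunit genes, Rpl37a, Rpl29 and Rpl7 had the largest rises. Rpl29, which mice can lack and survive, was at 418, 473 and 542 CPM in 2i and at 706, 746 and 819 CPM in serum (0.63 ± 0.07, adjusted p = 8.61e-07). Rpl37a was at 147, 195 and 225 CPM in 2i and at 275, 304 and 348 CPM in serum (0.66 ± 0.11, adjusted p = 3.84e-05). The groups did not overlap for either gene, and they did not for Rpl7 (333, 562 and 676 CPM against 725, 837 and 1077 CPM, 0.62 ± 0.16, adjusted p = 0.00239). Rpl11, which together with Rpl5 binds Mdm2, the ubiquitin ligase of p53, rose by 0.40 ± 0.09 (adjusted p = 0.00139), and Rpl41 rose by 0.44 ± 0.15 (adjusted p = 0.0184). Rpl5 (0.04 ± 0.08), Rpl22 (−0.06 ± 0.08), Rpl38 (−0.15 ± 0.18) and Rpl39 (0.20 ± 0.18) did not pass.

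The 3 stalk genes did not move together. Rplp0 was at 3357, 3555 and 3920 CPM in 2i and at 4537, 4984 and 5197 CPM in serum, and Rplp1 was at 510.0, 568 and 625 CPM and then at 779, 887 and 1039 CPM. In both, the groups were separate, and the log2 fold changes were 0.42 ± 0.09 for Rplp0 (adjusted p = 0.000557) and 0.62 ± 0.10 for Rplp1 (adjusted p = 2.14e-05). Rplp2 went the other way, from 426, 541 and 677 CPM in 2i to 310.2, 367 and 421 CPM in serum, without overlap (−0.63 ± 0.11, adjusted p = 0.000107). It was the largest fall of the family, and Rplp2 and Rplp0 are among the genes with divided reads.

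The other falls included Rpl15 (2006, 2256 and 2648 CPM in 2i, 1438, 1525 and 1615 CPM in serum, −0.59 ± 0.14, adjusted p = 0.00163), Rps20 (−0.53 ± 0.11, adjusted p = 0.000348) and Rpl13 (−0.52 ± 0.13, adjusted p = 0.00268). Rps14, the gene of the human 5q deletion syndrome, fell by 0.42 ± 0.12 on the log2 scale (adjusted p = 0.00418) and Rpl27a by 0.28 ± 0.08 (adjusted p = 0.00416). For Rpl15 every 2i library was above every serum library. Rpsa, which also serves as a laminin receptor, fell by 0.23 ± 0.10 (adjusted p = 0.0474), and leaving out any 1 of 13 of the 18 WT libraries ended that call, with adjusted p up to 0.143. Without WT2 2i replicate 1, Rpl41 lost its call too (adjusted p = 0.0557). The remaining 16 of the 18 members named for this comparison kept their calls.

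Described by sequence, the 19 genes with CTTTC near the start gave 4 rises and 5 falls with a median log2 fold change of 0.01, and the 34 with a promoter but without it gave 18 rises and 0 falls with a median of 0.28. In pKO the 19 gave 6 rises and 4 falls (median 0.04) and the 34 gave 11 rises and 1 fall (median 0.12), and in pInv they gave 2 and 2 (−0.10) and 5 and 0 (0.21). The 5 falls in WT were Rpl13, Rpl15, Rpl27a, Rplp2 and Rpsa, and Rps15a was among the rises. From serum to NPCs the 19 gave 3 rises and 6 falls in WT, 4 and 4 in pKO and 2 and 2 in pInv. The 34 gave 8 and 12, 7 and 9, and 2 and 2 in the same order. In Ctrl the 19 gave 6 and 1 and the 34 gave 22 and 1, and in KD 8 and 6 and 21 and 2. The same split of all genes is not given. The split was made after the changes were known and is given without a test.

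The fibroblast feeder markers moved with this comparison, from a summed 803, 1289 and 1557 CPM in WT 2i to 1385, 2245 and 2902 CPM in WT serum over 12 genes, and 10 macrophage markers went from 40.3, 109 and 150.1 CPM to 212, 282 and 476 CPM. None of these markers was at 0 in all libraries of either group. The part of feeder cells in the ribosomal protein changes was not tested.

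**Figure D2:**
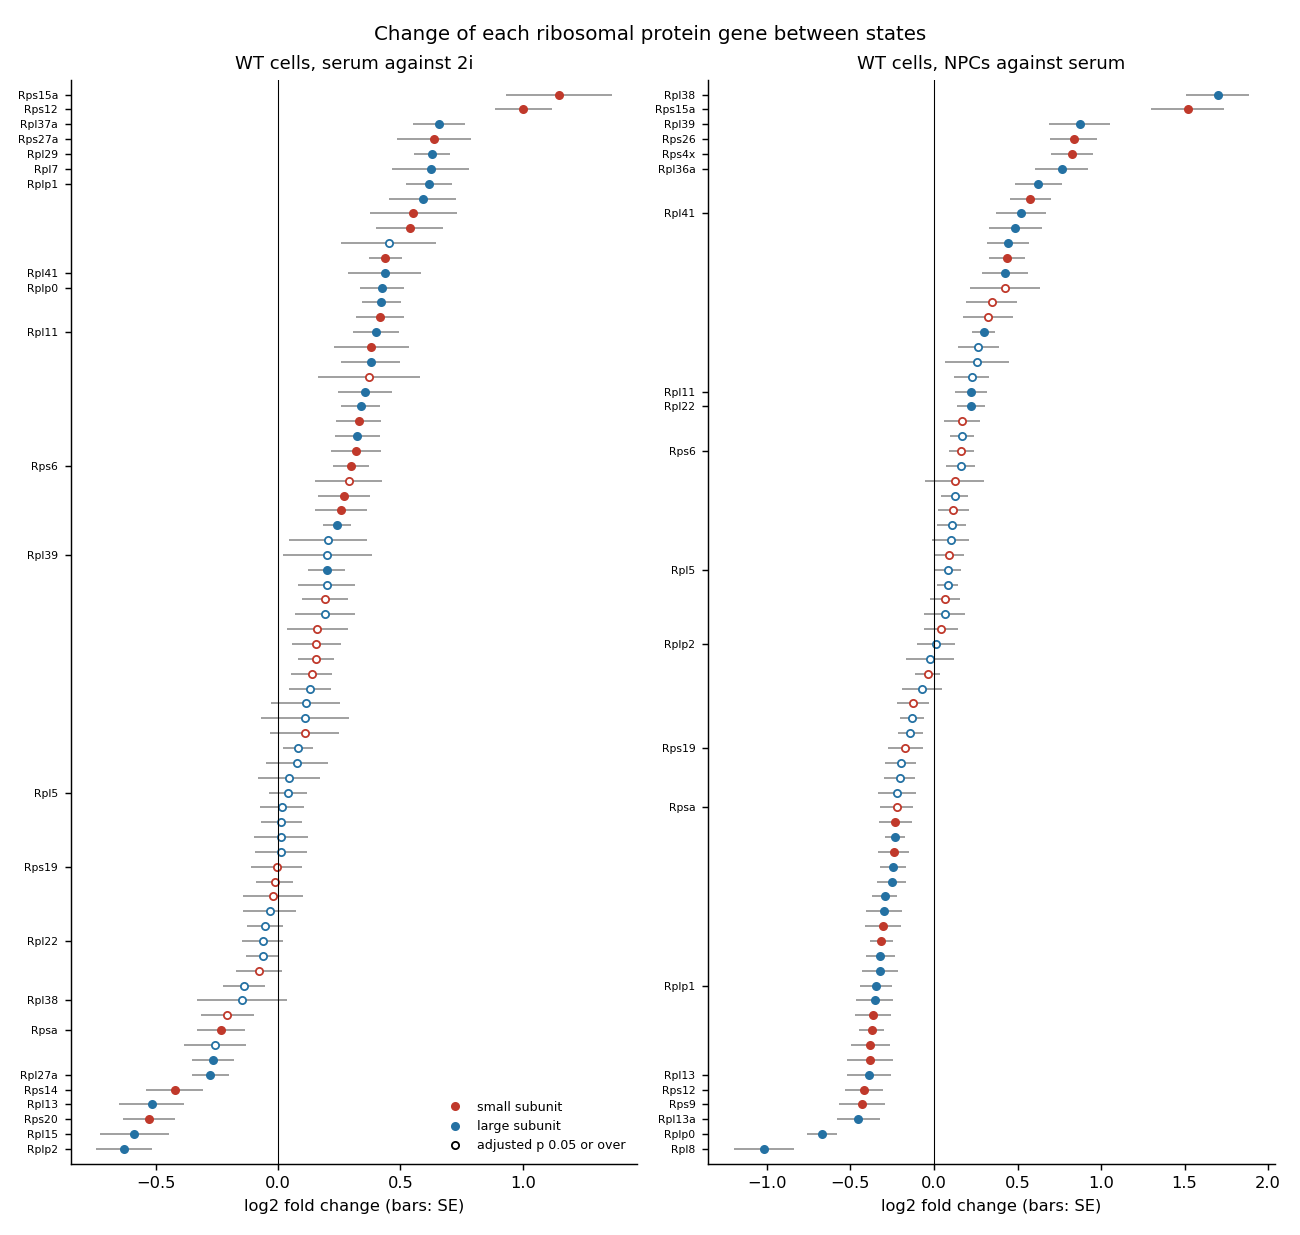
Log2 fold change of each of the 72 genes (horizontal axis, bars for SE) in WT cells from 2i to serum at the left and from serum to NPCs at the right, with small-subunit genes in red, large-subunit genes in blue filled symbols for adjusted p under 0.05 and names for a selection of genes. The left panel runs from −0.63 for Rplp2 to 1.15 for Rps15a and the right panel from −1.02 for Rpl8 to 1.70 for Rpl38.

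The same medium change was measured in pKO and pInv, whose own libraries are separate from those of WT. Their fits held all genotype libraries, WT among them, so filtering, scaling and the estimated spread also drew on the WT libraries. The calls in pKO and pInv are therefore not independent of those in WT. In pKO 22 members rose and 9 fell (58.1% of all genes passed, 30.1% as higher), and in pInv, with 3 libraries per state, 10 rose and 5 fell (44.3% of all genes passed, 22.6% as higher). The pKO split rests on the libraries numbered 3: without them 11 members rose and 10 fell, and the family median was −0.03 in place of 0.11. Without the libraries numbered 2, pInv gave 3 calls in place of 15. Of the 28 members called higher in WT, 19 were also called higher in pKO, which is 67.9% of the WT list and 86.4% of the pKO list. The same shares over all genes called higher were 81.6% and 80.0%. The 10 members called higher in pInv were all among the 28, and over all genes 93.6% of those called higher in pInv were called higher in WT. Rps12, Rps13, Rps15a, Rpl10a, Rpl29 and Rpl37a were among those that rose in all 3 genotypes, and Rps14, Rps20, Rpl3 and Rpl27a fell in all 3. For Rps12 the log2 fold change was 1.13 ± 0.14 in pKO and 0.90 ± 0.19 in pInv, and for Rps15a it was 1.20 ± 0.21 and 1.10 ± 0.30. In pInv most of these calls did not outlast the leave-outs of a library number: of 11 members named by the rule there, Rps12 alone kept its call in all 3. The call of Rpl27a in pInv ended in each of the 3, with adjusted p up to 0.191, and those of Rps14, Rps20, Rpl3, Rps15a, Rpl29 and Rpl37a ended in 1 each. In pKO, Rps14 lost its call in 2 of 3 (adjusted p up to 0.235), while Rps20, Rpl3, Rpl27a, Rps12, Rps15a, Rpl29 and Rpl37a kept theirs.

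Feeder markers moved in these lines as well, from a summed 601, 1317 and 1893 CPM (lowest, median and highest library) in pKO 2i to 1078, 3738 and 6130 CPM in pKO serum, and from a median of 1374 to 2502 CPM in pInv. Their part in the ribosomal protein changes was not tested.

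From serum to NPCs in WT cells, 16 members rose and 23 fell, and 66.3% of all genes passed (32% as higher, 34.3% as lower), so the 39 calls are no larger a share than the background. Small-subunit genes gave 5 rises and 10 falls and large-subunit genes 11 rises and 13 falls. The median log2 fold change was 0.05 for the family and −0.02 for all genes. Fitted changes in this comparison lie 0.09 below the log2 ratio of mean CPM, as a median over the 72 genes, because TMM scaling adjusts for composition.

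Rpl38 had the largest rise. In the mouse, loss of Rpl38 patterns the axial skeleton abnormally and lowers translation of Hox transcripts. Its level was 356, 469 and 527 CPM in WT serum and 1092, 1625 and 2113 CPM in WT NPCs (log2 fold change 1.70 ± 0.19, adjusted p = 3.58e-07), with every NPC library above every serum library. Rps15a followed, from 204, 224 and 323 CPM to 358, 747 and 1044 CPM (1.52 ± 0.22, adjusted p = 7.28e-06), again without overlap. Its 2 lowest NPC libraries were those numbered 1, at 358 CPM in WT1 and 451 CPM in WT2.

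Rps4x, Rpl36a and Rpl39 lie on the X chromosome and all rose. Rps4x was at 990.2, 1005 and 1286 CPM in serum and at 1482, 2127 and 2350 CPM in NPCs (0.83 ± 0.12, adjusted p = 1.35e-05). Rpl36a was at 201, 217 and 259 CPM and then at 272, 426 and 508 CPM (0.76 ± 0.16, adjusted p = 0.000387). Rpl39, which lines the exit tunnel, was at 206, 243 and 277 CPM and then at 271, 464 and 721 CPM (0.87 ± 0.18, adjusted p = 0.000392), and only for Rpl39 did the groups overlap. Rpl10 on the same chromosome was at 0.08 and did not pass. The 560 tested genes of the X chromosome had a median log2 fold change of 0.34 in this comparison, with 258 higher and 124 lower, and the part of the chromosome in the 3 rises was not tested. Rps26 rose by 0.84 ± 0.14 (adjusted p = 5.01e-05) and Rpl41 by 0.52 ± 0.15 (adjusted p = 0.00530).

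Rpl8, which reaches toward the catalytic centre of the ribosome, had the largest fall. It was at 1667, 2337 and 2618 CPM in serum and at 747, 1216 and 1726 CPM in NPCs (−1.02 ± 0.18, adjusted p = 7.57e-05), with a small overlap. Rplp0 went from 4537, 4984 and 5197 CPM in serum to 2561, 3368 and 4053 CPM in NPCs, without overlap (−0.67 ± 0.09, adjusted p = 3.92e-06). Rplp1 fell by 0.35 ± 0.09 on the log2 scale (adjusted p = 0.00363), while Rplp2 was at 0.01 ± 0.11 and did not pass. Rps12 lost part of its rise, with 2680, 3061 and 3660 CPM in NPCs (−0.42 ± 0.11, adjusted p = 0.00357). Rpl13a (−0.45 ± 0.13), Rps9 (−0.43 ± 0.14) and Rpl13 (−0.39 ± 0.13) also fell. Rps6 (0.16 ± 0.07), Rps19 (−0.17 ± 0.10), Rpsa (−0.22 ± 0.10) and Rpl5 (0.08 ± 0.08) did not pass.

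Rpl11 and Rpl22 rose by 0.22 each, and those calls ended when any 1 of 12 (Rpl11) or 5 (Rpl22) of the 18 libraries was left out, with adjusted p up to 0.108 and 0.0762. Rpl13 lost its call without WT2 serum replicate 1 (adjusted p = 0.0520) or WT1 NPC replicate 2. The other 13 members named by the rule kept theirs in every leave-out. Markers of other cells moved strongly between these groups: feeder markers went from 1385–2902 CPM to 81.1–175 CPM and macrophage markers from 212–476 CPM to 3.9–8.1 CPM, with 4 of 10 macrophage markers at 0 in all WT NPC libraries. Their part in the changes was not tested.

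**Figure D3:**
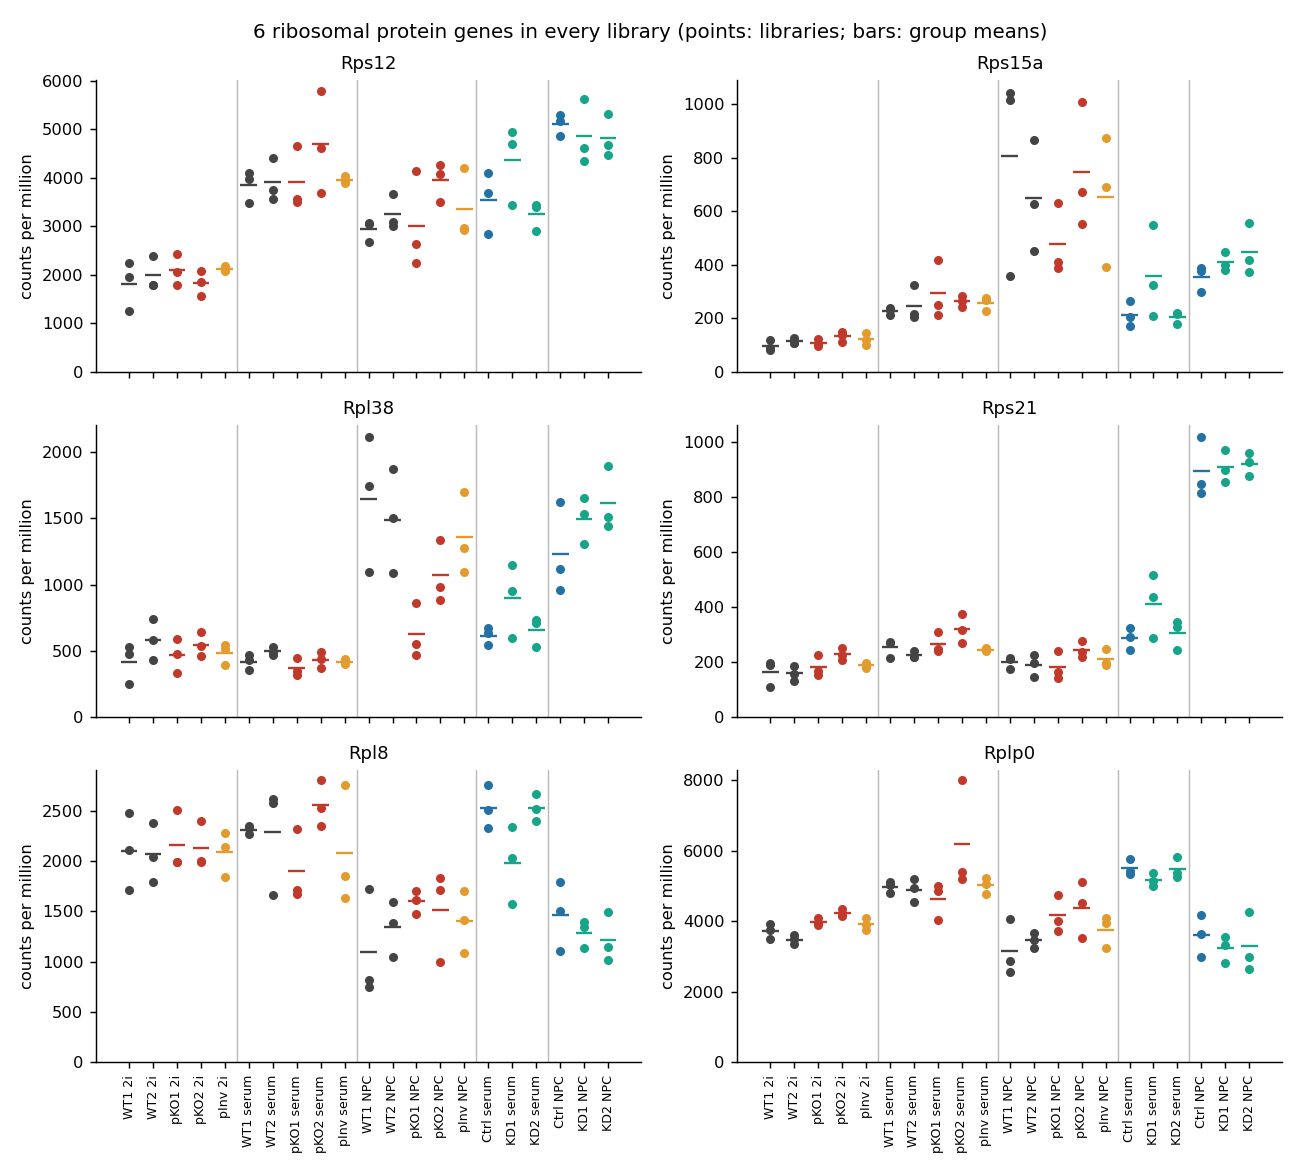
CPM of Rps12, Rps15a, Rpl38, Rps21, Rpl8 and Rplp0 in every library of the 21 groups (vertical axes linear from 0, points for libraries, bars for group means). Rpl38 lies at 356 to 527 CPM in WT serum and 1092 to 2113 CPM in WT NPCs, and Rps21 exceeds 800 CPM only in the Ctrl and KD NPC libraries.

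The step to NPCs was measured in 4 further sets of lines, of which pKO and pInv were again fitted together with the WT libraries. In pKO 16 members rose and 17 fell (63% of all genes passed, 29.8% as higher), and in pInv 5 rose and 6 fell (47.3%, 25.4% as lower). The pKO split turned with single library numbers, to 6 rises and 20 falls without those numbered 2 and to 21 rises and 10 falls without those numbered 3. Without the libraries numbered 1, pKO gave 14 rises and 7 falls, and without those numbered 2 pInv gave 3 in place of 11 (6 without those numbered 3). In the perturbation series the balance differed. In Ctrl 38 members rose and 3 fell, where 54.4% of all genes passed and 27.2% passed as higher, and the family median was 0.41 against 0.00 for all genes. In KD 39 rose and 9 fell, where 67.6% of all genes passed and 33.6% passed as higher, with a family median of 0.33. Without the libraries numbered 3, which include the Ctrl NPC library with no growth protocol, Ctrl gave 24 calls, all rises, in place of 41.

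In all 5 sets Rps4x, Rps15a, Rpl36a and Rpl38 rose and Rpl8 and Rplp0 fell. The rise of Rpl38 was 0.91 ± 0.18 in pKO, 1.59 ± 0.26 in pInv, 1.01 ± 0.24 in Ctrl and 1.06 ± 0.17 in KD. The change of Rpl8 was −0.63 ± 0.17 in pKO, −0.67 ± 0.24 in pInv, −0.78 ± 0.18 in Ctrl and −0.80 ± 0.13 in KD. Rplp0 was at −0.45 ± 0.11, −0.52 ± 0.15, −0.61 ± 0.16 and −0.67 ± 0.11 in the same order. The call of Rpl8 ended in Ctrl without the libraries numbered 3 (adjusted p = 0.0731) and in pInv without those numbered 2 or 3 (up to 0.0947). That of Rplp0 ended in Ctrl without those numbered 2 or 3 (up to 0.0807), in pInv without those numbered 2 (0.0561) and in pKO without those numbered 1 (0.0641). Rpl36a lost its call without those numbered 1 or 2 in pKO and in pInv, and Rps4x without those numbered 2 in pInv. All 4 members on the X chromosome rose in Ctrl and in KD, where the genes of that chromosome had medians of 0.49 and 0.50.

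Rps21, a small-subunit protein, changed most in the perturbation series. It was at 243, 292 and 325 CPM in the 3 Ctrl serum libraries and at 814, 847 and 1016 CPM in the 3 Ctrl NPC libraries (log2 fold change 1.64 ± 0.20, adjusted p = 1.01e-05). In KD it was at 244, 335 and 514 CPM in serum and at 854, 913 and 970 CPM in NPCs (1.41 ± 0.14, adjusted p = 3.05e-07). In WT cells it was at 215, 229 and 274 CPM in serum and at 146, 205 and 224 CPM in NPCs, where it fell by 0.38. The NPC libraries of the perturbation series were thus all above those of WT.

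Other large rises in Ctrl were those of Rps29 (299, 333 and 379 CPM, then 657, 789 and 1155 CPM, 1.37 ± 0.25), Rpl35a (119.9, 146 and 177 CPM, then 290.0, 385 and 428 CPM, 1.32 ± 0.21) and Rpl23 (132, 148 and 183 CPM, then 327, 373 and 427 CPM, 1.29 ± 0.19), with adjusted p of 0.000277, 0.000110 and 5.71e-05. None of these overlapped between states. Rps29 and Rpl35a are Diamond-Blackfan anaemia genes in humans, and Rpl23 binds Mdm2. Rpl5 (0.72 ± 0.12), Rpl11 (0.97 ± 0.15), Rpl22 (0.94 ± 0.13), Rps6 (0.42 ± 0.15) and Rps19 (0.47 ± 0.17) rose in Ctrl, and of these Rps6 and Rps19 lost the call without the libraries numbered 1 or 3, with adjusted p up to 0.126 and 0.159. Rplp1 (−0.08 ± 0.20), Rplp2 (−0.07 ± 0.19) and Rpl41 (0.17 ± 0.23) did not pass. Rpl15 fell by 0.49 ± 0.18 on the log2 scale (adjusted p = 0.0326), a call that ended without the libraries numbered 2 or 3 (adjusted p up to 0.276).

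The difference between the series was itself tested as the change in Ctrl minus the change in WT, a comparison added after the results had been seen. It passed for 21 members, 20 with the higher change in Ctrl and 1, Rps20, with the lower (15.7% of all genes passed, 6.15% as higher). The largest differences were those of Rps21 (1.96 ± 0.20, adjusted p = 2.49e-06), Rpl37a (1.03 ± 0.21, adjusted p = 0.00215) and Rpl35a (1.00 ± 0.28, adjusted p = 0.0189). Rps7, which binds Mdm2, followed (0.96 ± 0.14, adjusted p = 0.000175), with 1079, 1138 and 1367 CPM in WT serum, 1117, 1305 and 1403 CPM in WT NPCs, 1060, 1183 and 1278 CPM in Ctrl serum and 2386, 2405 and 2583 CPM in Ctrl NPCs. Rpl3, Rpl9, Rpl37a, Rps12, Rps13 and Rps21 were called lower in WT and higher in Ctrl. They are 6 of the 23 members called lower in WT, and over all genes it was 106 of 4965 (2.13%). The count was 20, 11 and 4 without the libraries numbered 1, 2 and 3, and Rps21, Rpl37a and Rps7 were the 3 of 10 named members that passed each time. Rpl35a and Rps20 passed in none of these 3 settings, with adjusted p up to 0.0812 and 0.178.

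Line, vector and series cannot be told apart in that difference, since no line was grown in both series. Beside it, pluripotency markers were at 557–1080 CPM in WT NPCs and at 1582–2634 CPM in Ctrl NPCs, neural progenitor markers at 179–559 CPM and 159–358 CPM, and feeder markers in serum at 1385–2902 CPM in WT and 210–881 CPM in Ctrl. Their part was not tested. Among genes with a promoter sequence, the 34 without CTTTC had a median difference of 0.39 with 11 higher, and the 19 with it a median of −0.04 with 5 higher. This split, too, was made after the changes were known, without a test and without the same split of all genes.

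**Figure D4:**
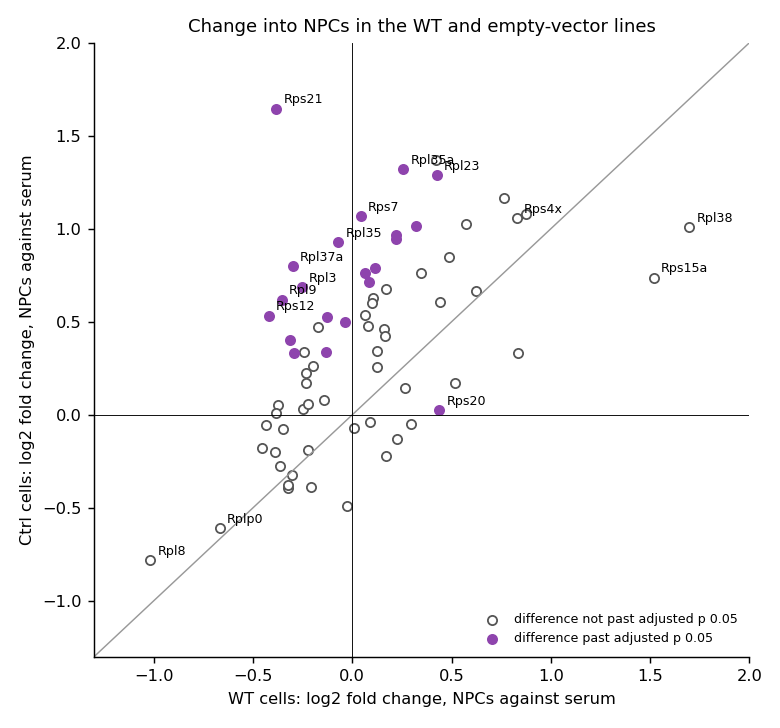
Log2 fold change from serum to NPCs of each of the 72 genes in WT (horizontal axis) and in Ctrl (vertical axis), with the line of equality, and filled symbols where the difference passed an adjusted p of 0.05. The 21 filled symbols lie above the line except Rps20, and Rps21 lies furthest from it, at 1.64 in Ctrl.

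Deleting the Meteor promoter was compared with WT within each state. In 2i, 11 members were higher in pKO and 0 lower, where 9.05% of all genes passed, 3.29% as higher and 5.75% as lower. The median log2 fold change was 0.20 for the family and −0.01 for all genes, and 68 of 72 members were positive. With the replicate number as a block, which pairs the 2i libraries, 39 members were higher and 0 lower. With WT1 alone as the control the count was 0, with WT2 alone it was 10, and with each line as 1 replicate it was 0.

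Of the 7 members for which libraries were left out in turn, Rps26 alone kept its call each time. It was at 1361, 1408 and 1662 CPM in WT and at 1485, 1878 and 2152 CPM in pKO, with overlap (0.36 ± 0.08, adjusted p = 0.0119), and 15 libraries were left out in turn. The pKO2 libraries were its highest, at 1813 to 2152 CPM. Rps6 (0.39 ± 0.11), Rplp1 (0.39 ± 0.10), Rpl37a (0.38 ± 0.10), Rpl14 (0.34 ± 0.10), Rps24 (0.31 ± 0.08) and Rplp0 (0.22 ± 0.06) also passed, and each lost its call when some 1 library was left out. For Rps6, pKO1 was at 1774 to 2002 CPM, inside the range of WT (1568 to 2029 CPM), and pKO2 was at 2542 to 3279 CPM. Rpl21, Rps13 and Rps15 passed as well. The count itself ranged from 2, without pKO2 replicate 1 or WT2 replicate 3, to 23, without WT1 replicate 3. It was 7, 4, 5, 4, 3, 3 and 6 without WT1 replicate 1, WT2 replicate 1, pKO1 replicate 1, WT1 replicate 2, pKO1 replicate 2, pKO2 replicate 2 and pKO1 replicate 3.

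In serum, 0 members were higher and 1, Rpl27, was lower, where 5.95% of all genes passed (1.77% as higher and 4.18% as lower), and 14 members had an unadjusted p under 0.05. Rpl27 was at 1927, 2343 and 2518 CPM in WT and at 1571, 1690 and 2106 CPM in pKO (−0.32 ± 0.08, adjusted p = 0.0264), and 9 of the 15 leave-outs ended the call, with adjusted p up to 0.128. DESeq2 called 3 members. The count reached 4 without pKO2 replicate 2, 3 without pKO2 replicate 3 and 2 without pKO2 replicate 1, and it was 0 without any 1 of 8 others, namely each pKO1 library, WT1 replicate 2 or 3, WT2 replicate 1 or 3 and pInv replicate 1.

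In NPCs, 6 members were higher in pKO and 3 lower, where 8.05% of all genes passed (3.45% as higher and 4.60% as lower). The higher ones included Rps6 (2369, 2733 and 3325 CPM in WT, 2959, 3501 and 4351 CPM in pKO, 0.43 ± 0.08, adjusted p = 0.00602), the stalk genes Rplp2 (0.47 ± 0.13) and Rplp0 (0.42 ± 0.12), Rpsa (0.43 ± 0.11) and Rpl17 (0.36 ± 0.10). The lower ones were Rpl38, Rpl23a (−0.51 ± 0.14) and Rpl19 (−0.33 ± 0.10). Rpl38 was at 1092, 1625 and 2113 CPM in WT and at 466, 874 and 1340 CPM in pKO (−0.90 ± 0.20, adjusted p = 0.0150). The pKO1 libraries were at 466, 551 and 861 CPM, all below WT, and the pKO2 libraries at 888, 986 and 1340 CPM, of which 1 lay within the WT range. Rps6 and Rpl38 kept their calls in every leave-out, with highest adjusted p of 0.0236 and 0.0471, and the other 7 did not. Without WT1 replicate 1 the count was 21, without pKO1 replicate 1 it was 3, and without pKO1 replicate 3 it was 4. Without pKO1 replicate 2 the split turned to 1 higher and 6 lower, and the family median was 0.03 in place of 0.13. It was 2 without WT1 replicate 2 or 3, WT2 replicate 2 or 3, or pKO2 replicate 2 or 3. With the lines as replicates the count was 0. Pluripotency markers were at 557–1080 CPM (median 684) in WT NPCs and at 632–1780 CPM (median 1063) in pKO NPCs. The summed level of 6 mesendoderm markers was 2.76–27.7 CPM (median 5.36) in WT NPCs and 17.8–130 CPM (median 59.1) in pKO NPCs. Neural progenitor markers were at 179–559 CPM and 142–499 CPM. Their part in the pKO differences was not tested.

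Whether the pKO difference itself changed between states was tested in the 45 genotype libraries. No member passed for serum against 2i (1.13% of all genes passed, 2 members had an unadjusted p under 0.05, and DESeq2 called 0) or for NPCs against serum (4.05% of all genes passed, 15 members had an unadjusted p under 0.05, and DESeq2 called 2). For Rpl38 the second difference was −0.79 ± 0.26 (adjusted p = 0.0716). Without the libraries numbered 1, that second test called 23 members.

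Position on chromosome 11 went with several of these calls. Rpl19, Rpl23, Rpl23a, Rpl27, Rpl38 and Rps27a lie there. The 3 members lower in pKO NPCs and the 1 lower in pKO serum all belong to these 6, while the other 66 gave 6 higher and 0 lower in NPCs. In pKO NPCs all 6 were negative, between −0.90 and −0.33 (median −0.42), while the 1161 tested genes of the chromosome had a median of −0.38, with 5 higher and 321 lower. In serum the medians were −0.26 for the 6 and −0.33 for 1154 genes, and in 2i they were 0.04 for the 6 and −0.22 for 1152 genes.

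The wild-type lines differed on the same chromosome in 2i, and less in serum and NPCs. In WT2 against WT1 in 2i, 4 members were higher (Rps27a 0.63 ± 0.20, Rpl23 0.63 ± 0.16, Rpl19 0.53 ± 0.12, Rpl27 0.49 ± 0.09) and 1, Rpl32, was lower (−0.52 ± 0.12), where 18% of all genes passed, 9.21% as higher. All 4 rises are on chromosome 11, whose 1152 tested genes had a median of 0.33 with 373 higher and 19 lower. Of the 5 members, Rpl27 alone kept its call in every leave-out. Rps27a lost it in 3 of 15, and Rpl19, Rpl23 and Rpl32 in 1 each. With the replicate block 15 members passed, and without WT2 replicate 2 or 3 the count was 2 or 3. Genes of chromosome 8 also differed between the wild-type lines, with medians of 0.39 in 2i, 0.38 in serum and 0.36 in NPCs over all its tested genes. No member passed between the wild-type lines in serum (0.528% of all genes passed, 4 members had an unadjusted p under 0.05, and DESeq2 called 0) or in NPCs (0.103%, 3 members, and 0 by DESeq2). Gene copies were not measured, and whether they differ between lines was not tested.

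**Figure D5:**
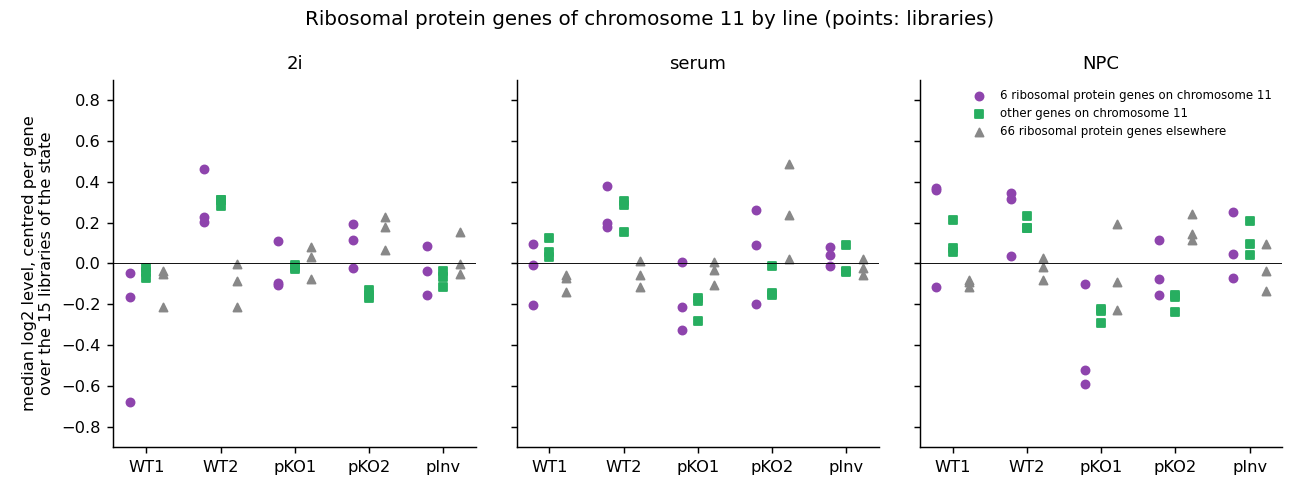
Median log2 level, centred per gene over the 15 libraries of a state, of the 6 ribosomal protein genes on chromosome 11, the other genes of that chromosome and the ribosomal protein genes elsewhere, with a point for each library of the 5 genotype lines. In 2i the 6 members average −0.30 in WT1 and 0.30 in WT2. Of the WT1 libraries in 2i, replicate 1 is at −0.68, replicate 2 at −0.17 and replicate 3 at −0.05. In NPCs the 6 members average −0.40 in pKO1 and −0.04 in pKO2, while members elsewhere average −0.04 and 0.17.

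Inverting the promoter gave no call in the family. In 2i 0 members passed (0.911% of all genes passed, 5 members had an unadjusted p under 0.05, and DESeq2 called 0), with a family median of 0.13, and 2 passed with the replicate block. In serum 0 passed (0.0563% of all genes, 0.00704% as higher and 0.0493% as lower, 0 members at an unadjusted p under 0.05, 0 by DESeq2) and in NPCs 0 passed (0.0138% of all genes, 1 member, 0 by DESeq2). Fitted changes ran from −0.13 to 0.37 in 2i and from −0.41 to 0.37 in NPCs, where Rpl38 was at −0.19 ± 0.25.

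Knockdown gave none either. The fits did not pair libraries by number, and the serum fit did not call Platr11, so an absence of change is not shown. In serum 0 of 13644 genes passed (0.0%), 3 members had an unadjusted p under 0.05 and DESeq2 called 0 members, and in NPCs 0 of 13454 genes passed (0.0%), with 1 member and 0 by DESeq2. The family median was 0.11 in serum and 0.02 in NPCs, and member changes ran from −0.18 to 0.57 and from −0.31 to 0.42. Rpl39 was at 0.48 ± 0.20 in serum and 0.42 ± 0.18 in NPCs. The knockdown effect did not pass between NPCs and serum for any member (0.0% of all genes, 0 members at an unadjusted p under 0.05, 0 by DESeq2).

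Genes that act with the ribosomal proteins were read from the same fits. From 2i to serum in WT, where 59.0% of all genes passed and 29.5% passed in each direction, 18 of 27 ribosome assembly factors rose and 0 fell, with a median log2 fold change of 0.43. Among them were Fbl, the methyltransferase of box C/D particles (0.66 ± 0.07), Nhp2 (0.96 ± 0.12) and Nop16 (0.83 ± 0.11). Of 11 genes of RNA polymerase I transcription, 4 rose and 1, Ubtf (−0.48 ± 0.11), fell, with Polr1c (0.70 ± 0.14) and Polr1b (0.61 ± 0.12) among the rises. Of 13 Myc and TOP regulators, 6 rose and 2 fell. Myc went from a mean of 10.9 to 133 CPM (3.57 ± 0.26), Mycn from 162 to 346 CPM (1.06 ± 0.13) and Larp1 from 537 to 814 CPM (0.57 ± 0.08). Of 17 further genes listed for a terminal oligopyrimidine start, 6 rose and 1 fell. That list holds translation factors and other genes, among them Npm1, Hnrnpa1 and Cct4. Of 77 mitochondrial ribosomal protein genes, 27 rose and 9 fell, with a median of 0.17.

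Among ribosomal proteins outside the name rule, Rps3a1 rose (0.56 ± 0.12) and Rack1 was at 0.05 ± 0.06. Of 8 paralogs 0 rose and 4 fell, including Rpl10l (124 to 24.6 CPM, −2.45 ± 0.22) and Rpl39l (36.1 to 6.9 CPM, −2.51 ± 0.23), known as testis-enriched counterparts of Rpl10 and Rpl39, and Rps4l (−0.76 ± 0.11). Of 12 p53 targets 0 rose and 7 fell, with Gdf15 (−2.35 ± 0.39), Sesn2 (−1.04 ± 0.20) and Bbc3 (−0.87 ± 0.26) among them.

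From serum to NPCs in WT, where 66.3% of all genes passed (34.3% as lower), 1 assembly factor rose and 18 fell (median −0.45), and Tcof1 (−1.36 ± 0.09), Nop2 (−1.26 ± 0.13) and Fbl (−0.81 ± 0.07) had the smallest p. RNA polymerase I genes gave 1 rise and 6 falls, with Rrn3 (−0.80 ± 0.09), Polr1b (−1.08 ± 0.12) and Polr1a (−0.85 ± 0.10) among the falls. The Myc and TOP regulators gave 2 rises and 8 falls, with Myc at −3.73 ± 0.26, Mycn at −1.49 ± 0.13 and Max at −0.74 ± 0.08. Mitochondrial ribosomal protein genes gave 9 rises and 35 falls. The further oligopyrimidine genes gave 5 rises and 6 falls, and Pabpc1, the poly(A)-binding protein, was at −0.75 ± 0.09. Rpl10l (−2.57 ± 0.25), Rpl39l (−2.54 ± 0.27) and Rps4l (−1.05 ± 0.12) fell again, 4 falls and 2 rises in all among the paralogs, and p53 targets gave 3 rises and 5 falls with Cdkn1a at −1.98 ± 0.15.

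In Ctrl, where 54.4% of all genes passed and 27.2% passed in each direction, the step to NPCs gave 9 rises and 8 falls among assembly factors and 26 rises and 15 falls among mitochondrial ribosomal protein genes. The further oligopyrimidine genes gave 7 rises and 5 falls, with Eif3e (1.44 ± 0.24), Npm1 (1.06 ± 0.21) and Eef2 (−1.03 ± 0.22) having the smallest p. Rps27l (1.62 ± 0.22) and Rpl22l1 (2.43 ± 0.39), paralogs of Rps27 and Rpl22, rose. Myc fell by 2.13 ± 0.25 on the log2 scale. The change of Myc in Ctrl minus that in WT was 1.53 ± 0.29 (adjusted p = 0.00137), and 6 assembly factors, among them Fbl (0.62 ± 0.12), and 10 mitochondrial ribosomal protein genes had the higher change in Ctrl, with 0 lower in both lists, where 15.7% of all genes passed and 6.15% passed as higher. In pKO against WT, Fau (0.30 ± 0.07), Naca (0.20 ± 0.06) and Pabpc1 (0.25 ± 0.07) were higher in 2i and Nop2 was lower (−0.25 ± 0.07), and in NPCs Myc (1.82 ± 0.20) and Mycn (0.55 ± 0.14) were higher.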

How the data were processed

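Each library came as an RSEM gene table deposited by the authors, with an expected count and a TPM per gene. Per the submitters' processing notes the reads were quantified with RSEM on mm9, and per the labels' protocols libraries were made from Trizol RNA with the Lexogen SENSE mRNA-Seq kit. Versions, aligner and strand setting are not given in the sources used here. Promoters came from RefSeq on GRCm38.p6, used for sequence only. Of 24990 rows, 23447 were named by gene id, 1139 by accession and 1 by its own symbol, 375 merged several genes and 28 stayed unnamed.

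Expected counts were rounded to whole numbers and tested with edgeR 4.0.16 (filterByExpr, TMM, quasi-likelihood F test, Benjamini-Hochberg at 0.05) in R 4.3.3, on all genes, with 1 mean per line and state. WT, pKO and KD effects are means of their 2 lines. Standard errors were derived from the log2 fold change and F (their ratio, with F under a square root). CPM is the count over the library total. State comparisons of WT used 18 libraries, those of pKO and pInv 45, those of Ctrl and KD 18, genotype comparisons the 15 of a state and knockdown comparisons the 9 of a state. The steps were checked on simulated data. Python 3.11.15, numpy 2.4.6, pandas 2.3.3 and matplotlib 3.10.9 did the rest.

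Named members were 12 set genes (the stalk genes, Rpsa, Rps6, Rps19, Rpl5, Rpl11, Rpl22, Rpl38, Rpl39, Rpl41), up to 6 rises and 6 falls per comparison, the 5 highest and lowest by TPM, and the 3 most and least variable. The related genes named have the smallest p in their lists, and Rack1 was named after its value was seen. Some genes that these rules pick are not reported here by name. Members and lists were chosen with earlier results of these data known.

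Replicate numbers were taken to pair libraries where every same-numbered pair of lines had correlated residuals over 0.1, as in 2i (30 of 30, lowest 0.220), and in the knockdown comparisons (9 of 9, lowest 0.268 in serum and 0.236 in NPCs). In the genotype series 28 of 30 passed in serum (lowest 0.0884) and 17 of 30 in NPCs. The main fits held no pairing term in any comparison, also where the numbers pair, and pairing entered only through the replicate block. Alternatives were DESeq2 1.42.0, RLE scaling, no filter, TMM without the members, a replicate block, 1 WT line as control, lines as replicates, scaling to the family and leaving out libraries.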

Additional observations from a re-analysis of the deposited data

Results flagged for a closer look

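The change from serum to NPCs differed between the empty-vector line and the wild-type lines, by a test of the difference itself, for 21 members. The largest differences, as the log2 fold change in Ctrl minus that in WT, were 1.96 for Rps21, 1.03 for Rpl37a, 1.00 for Rpl35a, 0.96 for Rps7, 0.93 for Rpl35 and 0.90 for Rpl9. Rpl35 went from 158–198 CPM in WT serum to 176–200 CPM in WT NPCs and from 149–189 CPM in Ctrl serum to 254–452 CPM in Ctrl NPCs. Rpl9 went from 751–889 CPM to 513–849 CPM in WT and from 670.1–798 CPM to 910.1–1213 CPM in Ctrl. These series share no line, and the cause was not tested.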

How the results depend on the processing

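Members called are given here against the main count. From serum to NPCs in WT, the replicate block gave 18 in place of 39 (10 higher, 8 lower), and its numbers do not pair those states by design. As coded, the block makes a comparison between states rest on the levels fitted for the libraries numbered 1. Its fitted changes therefore differ from those of the main fit, for Rps9 −0.04 in place of −0.43. The count of 18 thus describes a different contrast, not the same one with pairing. Of the members named there, those without a call under that block were Rpl11, Rpl13, Rpl13a, Rpl22, Rpl36a (adjusted p = 0.0570), Rpl39 (0.122), Rpl41, Rplp1, Rps9 and Rps12. For pKO against WT in 2i (main count 11), WT1 alone gave 0, lines as replicates 0, DESeq2 20 and the block 39. In serum (1) WT1 alone gave 0, lines as replicates 0, DESeq2 3 and the block 3. In NPCs (9) WT1 alone gave 5, WT2 alone 1, lines as replicates 0 and DESeq2 17. The block gave 2 for pInv in 2i (0) and 15 for WT2 against WT1 in 2i (5). For the pKO effect in NPCs minus serum (0), DESeq2 gave 2, RLE scaling 1 and the block 2. The block changed no other count by over 1.5 times. RLE scaling, no filter and TMM without the members kept every other count within 1.5 times.

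With libraries left out, counts ranged from 31 to 41 for WT from 2i to serum, 34 to 49 for WT from serum to NPCs, 21 to 28 and 21 to 31 for the same steps in pKO, 3 to 19 and 3 to 11 in pInv, 24 to 39 in Ctrl and 35 to 51 in KD. They ranged from 2 to 23, 0 to 4 and 2 to 21 for pKO against WT in 2i, serum and NPCs, 2 to 7 for WT2 against WT1 in 2i, 0 to 23 for the pKO effect in NPCs minus serum, and 4 to 20 for Ctrl minus WT. The cause was not tested.

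Of 2091 alternatives for 154 results of single members, 1773 kept direction and call, 318 lost the call and 0 reversed, and 69 results lost it without some library. Counts of at least 644 per member make counting error small beside the spread between libraries.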
